A study of Mus musculus with 6 samples.

Results

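The kallikrein-related proteases, their inhibitor and an upstream protease were followed in mouse corneal epithelium, as 10 genes chosen by symbol. They were the proteases *Klk5*, *Klk6*, *Klk7*, *Klk8*, *Klk10*, *Klk11*, *Klk13* and *Klk14*, the inhibitor gene *Spink5* and *St14*, which encodes matriptase. The expression table listed 9 of the 10 among 17784 genes, and *Klk5* was not analysed here. Of the 9, 6 passed the filter for low counts and were tested, among 12999 tested genes in all.

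Kallikrein-related peptidases are secreted serine proteases that are made as inactive precursors and are encoded side by side in a single gene cluster. In the outer epidermis they cut corneodesmosin and the desmosomal cadherins that hold surface cells together, and so allow these cells to be shed. LEKTI, the product of *Spink5*, binds and inhibits some of them, and matriptase is a membrane-anchored protease that can activate precursors of this kind. The corneal epithelium is also renewed by shedding of its surface cells, although it forms no cornified layer in health.

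Bulk RNA-seq compared 3 samples labelled KO, written Ptch1Prrx1, with 3 control samples labelled WT. The Ptch1Prrx1 mice carried *Prrx1-CreERT* and floxed *Ptch1* (f/f), and the controls are named *Ptch1* f/f in the study. The labels give an age of 10 weeks, 3 doses of tamoxifen and an interval of 2 months for every sample, so that the controls received tamoxifen too, and do not say whether the age is that at tamoxifen or at sampling. The study describes tamoxifen at 2 months of age and names no age for the epithelial RNA-seq. By the study, *Prrx1-CreERT* recombines in keratocytes, corneal endothelial cells and other mesenchymal cells of the eye. The epithelium was lifted off with EDTA before RNA extraction, and whether recombination spared it was not tested here. The sources used here do not say whether a sample held 1 animal or several, so p-values measure the spread between these samples.

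The libraries held 20296741 to 20625813 expected counts each, and 3 counts in a library corresponded to 0.145 to 0.148 CPM (counts scaled to a common library total), a floor that covers counting error only. Of all tested genes, 2.34% rose and 0.892% fell, 3.23% in either direction, at an adjusted p of 0.05 or less and a fold change of 2 or more, which is the call used throughout. The floxed gene *Ptch1* had 517, 659 and 682 normalized counts in the controls and 390, 445 and 471 in the Ptch1Prrx1 samples, lower in each of the 3 (log2 fold change -0.51, standard error (SE) 0.13, adjusted p = 0.0401, edgeR). The source of this difference in epithelial samples was not tested. The corneal keratin *Krt12* stood at 37107 to 49487 TPM (a level scaled for gene length and for the sum over all genes) in the 6 samples. Ptch1Prrx1 replicate 1 stood apart from the other samples, at 53.8 on the first principal component against 19.2 and 20 for replicates 2 and 3 and -34.9 to -27.4 for the controls. It was also the highest of the 6 samples for 29.4% of all tested genes. The main results below are given with and without it.

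The sequence just upstream of a gene is shown for 4 proteases, because they lie next to or near each other in the cluster and yet differed in how their transcripts moved. RefSeq promoter sequences were matched by symbol for the 8 proteases, as 10 promoters. They belong to GRCm38.p6, whereas the submitters' processing notes name mm9, so the positions describe the sequences and not the counts. Each line gives the 250 bases before an annotated start on the + strand, 5′ to 3′, and capitals mark the letters TTAAAA within 40 bases of the start. *Klk7* (chr7:43811044-43811293) and *Klk8* (chr7:43797327-43797576) are the called genes, and *Klk10* (chr7:43780804-43781053) and *Klk11* (chr7:43774367-43774616, the upstream start of its 2) are neighbours with unlike differences.
Klk7: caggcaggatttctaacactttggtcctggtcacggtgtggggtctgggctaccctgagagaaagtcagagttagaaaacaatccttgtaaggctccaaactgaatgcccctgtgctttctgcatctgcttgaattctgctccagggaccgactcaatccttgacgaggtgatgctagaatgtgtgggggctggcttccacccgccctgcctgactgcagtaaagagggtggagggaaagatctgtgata
Klk8: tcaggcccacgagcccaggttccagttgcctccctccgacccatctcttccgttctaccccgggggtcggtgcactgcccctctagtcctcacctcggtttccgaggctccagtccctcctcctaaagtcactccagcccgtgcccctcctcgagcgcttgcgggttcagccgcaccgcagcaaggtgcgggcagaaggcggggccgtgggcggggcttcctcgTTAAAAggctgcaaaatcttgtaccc
Klk10: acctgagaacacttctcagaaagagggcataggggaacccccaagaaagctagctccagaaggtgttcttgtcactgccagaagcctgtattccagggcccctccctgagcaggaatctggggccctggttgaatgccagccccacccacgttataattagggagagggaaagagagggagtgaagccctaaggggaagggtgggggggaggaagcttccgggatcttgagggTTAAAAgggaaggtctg
Klk11: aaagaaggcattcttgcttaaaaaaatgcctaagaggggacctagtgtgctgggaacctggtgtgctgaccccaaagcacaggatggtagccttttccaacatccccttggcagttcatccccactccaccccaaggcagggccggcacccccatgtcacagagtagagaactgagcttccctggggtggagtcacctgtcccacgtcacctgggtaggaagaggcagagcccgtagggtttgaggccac

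The sequence before *Klk8* was the richest in CpG among the 10, with 18 CpG in 250 bases and a GC content of 65.2%. The other 9 had 0 to 7 CpG and a GC content of 50.4% to 57.6%. Over all 32851 RefSeq promoters the median was 6 CpG and 52.4% GC. Motifs were searched on both strands from 250 bases before to 50 bases after each start. The AP-1 motif TGANTCA occurred in 7.81% of all promoters and in 0 of the 10. The Grhl motif AACCNGTT occurred in 2.09% of all promoters and in 0 of the 10. The TATA box, searched as TATAAA, occurred in 13.6% of all promoters and again in 0 of the 10. The letters TTAAAA, which were picked after these sequences had been read, lay on the + strand 26 to 21 bases before the start of *Klk8* and 17 to 12 bases before that of *Klk10*. They occurred in that window in 1.44% of all promoters, and *Klk7* and *Klk11* did not hold them there. A match or its absence describes letters only.

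In control epithelium the transcripts of this system were uneven in level. *St14* was highest, at 142 TPM, followed by *Klk11* at 104, *Klk10* at 84.0 and *Spink5* at 74.9 TPM, each as a mean of 3 samples. *Klk8* stood far below at 8.43 TPM, and *Klk14*, *Klk13*, *Klk6* and *Klk7* lay between 0.163 and 0.477 TPM. The ranges of *Klk10* and *Spink5* overlapped in the controls, as did those of *Klk14* and *Klk13* and of *Klk13* and *Klk6*. The epidermal desquamation protease *Klk7* had the lowest mean of the 9 genes in control cornea, with 2 to 5 counts in a library, but its range overlapped those of *Klk14* and *Klk13*. In Ptch1Prrx1 samples the order of mean levels was *St14*, *Klk10*, *Spink5* and *Klk11*, then *Klk8*, *Klk13*, *Klk7*, *Klk14* and *Klk6*. There the ranges of the 4 highest genes overlapped from each gene to the next.

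**Figure D1:**
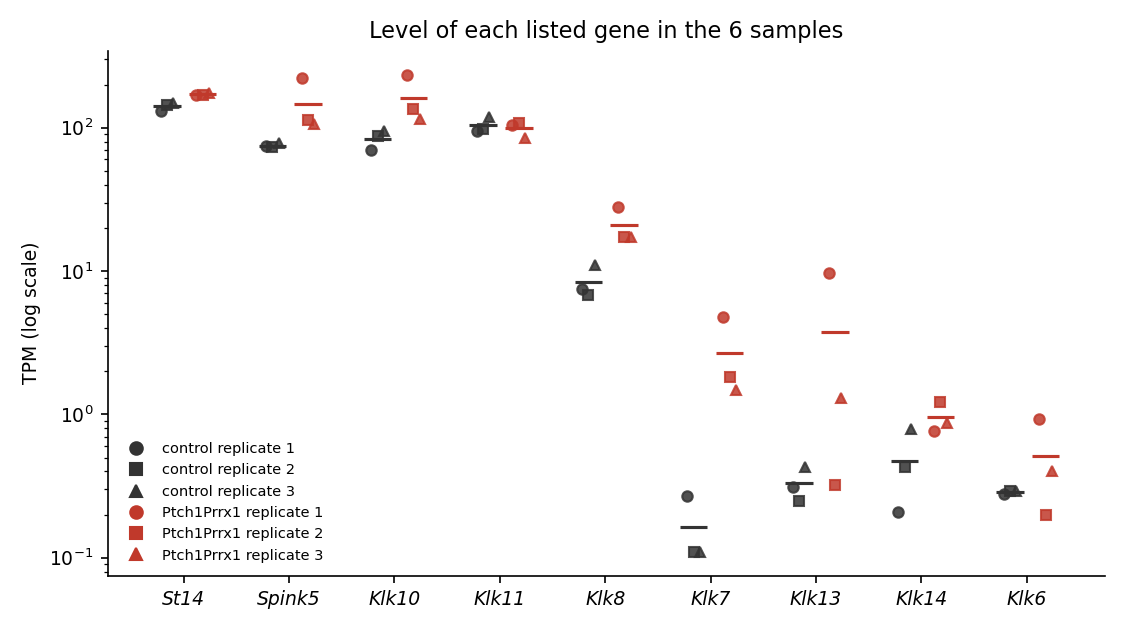
TPM of the 9 listed genes on a log axis, with 1 point per sample, black for control and red for Ptch1Prrx1, and a bar at the mean of 3. The 2 groups are apart for *St14*, *Spink5*, *Klk10*, *Klk8* and *Klk7*, overlap for *Klk11*, *Klk13*, *Klk14* and *Klk6*, and replicate 1 (circle) is the highest red point in 6 genes.

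*Klk7* and *Klk8* were the called genes among the 6 tested, both of them upregulated in Ptch1Prrx1 epithelium, and 0 were downregulated. *St14* was higher by a smaller amount, *Klk10* and *Spink5* were near 2-fold higher with an adjusted p just above the threshold, and *Klk11* had a fold change of 0.999. The median log2 fold change of the 6 was 1.02, against -0.01 over all tested genes. The groups did not overlap, with Ptch1Prrx1 higher, for 5 of the 6, and 0 were lower in this way. Over all tested genes 19.7% were higher and 20.3% lower without overlap, 39.9% in either direction. *Klk7* passed the filter only through its Ptch1Prrx1 counts, so that a tested *Klk7* had to differ. The counts of called genes and of genes without overlap, which both include it, are given as a description. In bulk samples, more cells that express a gene and more RNA per cell cannot be told apart.

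*Klk7* encodes a chymotrypsin-like protease that is known to cut corneodesmosin. Its level was 0.27, 0.11 and 0.11 TPM in control replicates 1, 2 and 3, and 4.77, 1.81 and 1.49 TPM in Ptch1Prrx1 replicates 1, 2 and 3. All 3 Ptch1Prrx1 samples lay above all controls, and replicate 1 was 2.89 times the mean of the other two. The counts behind these levels were 5, 2 and 2 in the controls and 88, 32 and 26 in the Ptch1Prrx1 samples. Summed over a group, 9 counts stood against 146, a ratio of 16.3 at equal depth with an exact counting interval of 8.34 to 36.3 (95%), which leaves out the spread between samples. The fitted log2 fold change was 4.02 (SE 0.68, adjusted p = 0.0153, edgeR). Without Ptch1Prrx1 replicate 1 it was 3.26 (adjusted p = 0.0108, edgeR), whereas the call was lost without control replicate 2 (adjusted p = 0.0803, edgeR) or 3 (0.0512). Over all genes, calls fell from 420 to 250, 59 and 254 without control replicate 1, 2 and 3. Other genes thus lost their calls in these fits too, and why the genes named here and below were among them was not tested. On the log2(TPM + 1) scale, which shrinks differences of low genes, the difference was 1.56 (adjusted p = 0.0261, limma).

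*Klk8*, which encodes the trypsin-like protease neuropsin, was at 7.45, 6.86 and 10.99 TPM in controls and 27.8, 17.3 and 17.3 TPM in Ptch1Prrx1 samples. The lowest Ptch1Prrx1 sample exceeded the highest control. The fold change was 2.99, or 1.58 on the log2 scale (SE 0.29, adjusted p = 0.0192, edgeR). It remained called without Ptch1Prrx1 replicate 1 (log2 fold change 1.22, adjusted p = 0.0168, edgeR). The call was lost without control replicate 1 (1.53, adjusted p = 0.0607, edgeR) or 2 (1.45, 0.0908).

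*Klk10* and *Klk11* encode secreted members of the family and are neighbours in the cluster, with similar levels in the controls. *Klk10* had 69.53, 87.36 and 94.98 TPM in controls and 235, 136 and 116 TPM in Ptch1Prrx1 samples, with no overlap. Its fold change was 2.01, with a 95% interval of 1.28 to 3.16, and it missed the call (log2 fold change 1.01, SE 0.28, adjusted p = 0.0524, edgeR). Without Ptch1Prrx1 replicate 1 the log2 fold change was 0.60 with a smaller spread (adjusted p = 0.0360, edgeR), under the fold change of a call. DESeq2 called *Klk10* (1.01, adjusted p = 0.0426), as did edgeR without Ptch1Prrx1 replicate 3 (1.23, adjusted p = 0.0332). *Klk11* had 95.1, 97.9 and 119 TPM in controls and 105, 107 and 85.3 TPM in Ptch1Prrx1 samples, and the groups overlapped. Its fold change was 0.999, with a 95% interval of 0.82 to 1.22 (adjusted p = 0.994, edgeR), and its sign changed between alternatives.

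The ratio of *Klk10* to *Klk11* TPM within a sample, taken up after these values were seen, was 0.731, 0.892 and 0.800 in the controls and 2.24, 1.26 and 1.35 in the Ptch1Prrx1 samples. *Klk11* was thus the more abundant of the pair in every control sample and *Klk10* in every Ptch1Prrx1 sample. The difference of the group means was 0.96 on the log2 scale, and no p-value is read from it because the pair was picked for this pattern. On normalized counts, which are not scaled for length, the ratio was 0.877, 1.12 and 0.965 in controls and 2.71, 1.56 and 1.56 in Ptch1Prrx1 samples, so that the crossing in every control holds for TPM only.

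**Figure D2:**
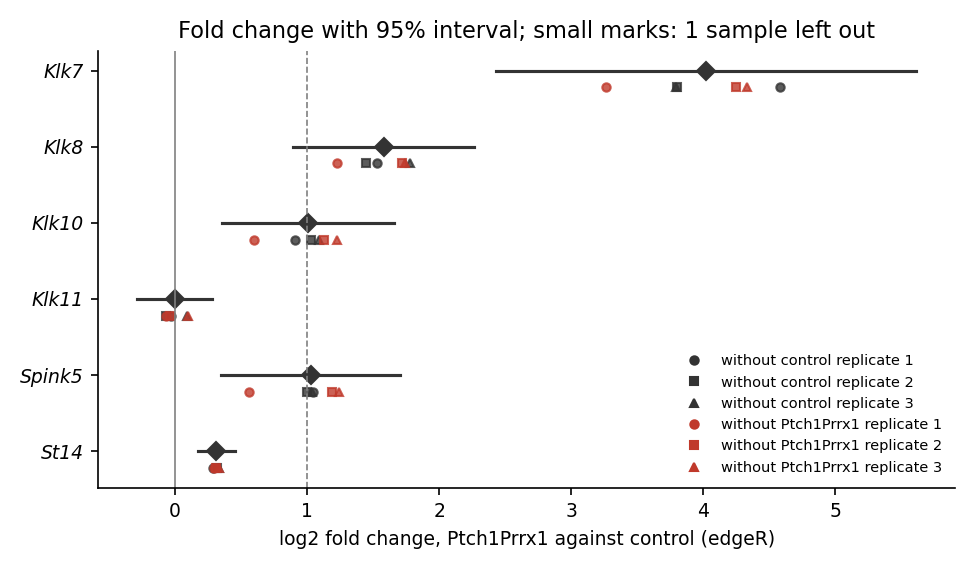
Log2 fold change (x axis) of the 6 tested genes from edgeR, with diamonds for all 6 samples, lines for the 95% interval, and small marks for fits without 1 sample, coloured by its group. The dashed line marks a fold change of 2, *Klk11* lies at 0, and leaving out Ptch1Prrx1 replicate 1 (red circle) moves *Klk10* from 1.01 to 0.60 and *Spink5* from 1.03 to 0.56.

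The remaining 3 proteases were not tested in the main fit, and their counts were low. *Klk13*, a trypsin-like member of the family, had 3, 4 and 7 counts in controls and 159, 6 and 22 in Ptch1Prrx1 samples. Replicate 1 alone carried most of this difference, at 9.68 TPM against 0.32 and 1.31 TPM in replicates 2 and 3, and the groups overlapped. With no filter beyond 1 count *Klk13* differed by 3.76 on the log2 scale (SE 1.14, adjusted p = 0.0760, edgeR). *Klk14*, a trypsin-like protease of the desquamation cascade, had 2.47, 6.48 and 9.18 expected counts in controls and 9.21, 14.25 and 12.25 in Ptch1Prrx1 samples. The ratio of its group sums was 2.06, with a counting interval of 1.13 to 3.93, and its TPM values overlapped while its normalized counts did not. With no filter beyond 1 count its log2 difference was 1.07 (SE 0.54, adjusted p = 0.252, edgeR). *Klk14* was the only listed member whose estimates were not whole numbers, in 6 of 6 samples, and 0.427% of the 50-base stretches of its annotated transcripts also occurred in transcripts of other genes. That share was 0.344% for *St14*, whose estimates were whole in every sample. The other genes differed, with *Pax6* among them for *Klk14* and *Olfr365* for *St14*. The source of the fractions was not tested. *Klk6*, a trypsin-like protease best known from the nervous system, had 3 counts in each control and 12, 2 and 4 in Ptch1Prrx1 samples. For *Klk6* the ratio of sums was 2.01, with a counting interval of 0.855 to 5.07, so that no difference was detectable at this depth (log2 difference 1.02 with no filter, adjusted p = 0.431, edgeR).

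*Spink5* had 74.1, 72.8 and 77.6 TPM in controls and 221, 113 and 106 TPM in Ptch1Prrx1 samples. Every Ptch1Prrx1 sample lay above the controls, and the coefficient of variation was 3.31% in the controls and 44.0% in the Ptch1Prrx1 samples. The fold change was 2.04, with a 95% interval of 1.27 to 3.26, and fell short of the call (log2 fold change 1.03, SE 0.29, adjusted p = 0.0548, edgeR). Without Ptch1Prrx1 replicate 1 the log2 fold change was 0.56, and the adjusted p was 0.00726 (edgeR). Without replicate 3 of that group *Spink5* was called (1.24, adjusted p = 0.0392, edgeR).

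*St14* had 131, 145 and 149 TPM in controls and 169, 170 and 174 TPM in Ptch1Prrx1 samples. It was the member with the least spread in the Ptch1Prrx1 group, with a coefficient of variation of 1.70%, and replicate 1 was not apart from the other two. *St14* rose by a fold change of 1.24, with a 95% interval of 1.13 to 1.37 (log2 fold change 0.31, SE 0.06, adjusted p = 0.0210, edgeR), well below the fold change of a call. Its adjusted p was 0.0533 to 0.0948 without control replicate 1, 2 or 3, and 0.0549 without Ptch1Prrx1 replicate 2 (edgeR). At the adjusted p alone, 3 of the 6 tested genes were higher, *Klk7*, *Klk8* and *St14*, where 7.61% of all tested genes were. *Klk7* belongs to this count only because its Ptch1Prrx1 counts passed the filter.

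Ptch1Prrx1 replicate 1 was the highest of the 6 samples, on normalized counts, for 5 of the 6 tested members, against the 29.4% of all tested genes given above. The ratio of its TPM to the mean of replicates 2 and 3 ran from 0.733 in *Klk14* to 11.9 in *Klk13*. It was 3.10 in *Klk6*, 2.02 in *Spink5*, 1.87 in *Klk10* and 1.61 in *Klk8*, but 1.08 in *Klk11* and 0.979 in *St14*. In *Klk11* and *St14*, which differed least between the groups, this replicate was thus not apart from the other two.

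Because TPM is scaled for length, the protease transcripts can be added and set against *Spink5*. The 7 listed proteases summed to 173, 193 and 226 TPM in controls and to 383, 264 and 222 TPM in Ptch1Prrx1 samples, with overlap. Their sum was 2.34, 2.65 and 2.91 times the *Spink5* level in controls and 1.73, 2.35 and 2.09 times in Ptch1Prrx1 samples. The mean ratio was 2.63 ± 0.29 (SD, n = 3) for controls and 2.06 ± 0.307 (SD, n = 3) for Ptch1Prrx1, with overlap at 2.34 and 2.35. Without Ptch1Prrx1 replicate 1 the mean ratio of that group was 2.22. Within the protease sum, *Klk10* made up 40.1% to 45.2% in controls and 51.4% to 61.2% in Ptch1Prrx1 samples, while *Klk11* made up 50.7% to 54.9% and 27.3% to 40.7%. The ratio of *St14* to *Spink5* TPM was 1.89 ± 0.111 (SD, n = 3) for controls and 1.31 ± 0.473 (SD, n = 3) for Ptch1Prrx1, and 1.58 for the latter without replicate 1. These sums are transcript levels and no test was run over them. *Klk10* and *Klk11* made up most of each sum. LEKTI does not inhibit every protease of the family, so the ratio is no measure of inhibition.

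**Figure D3:**
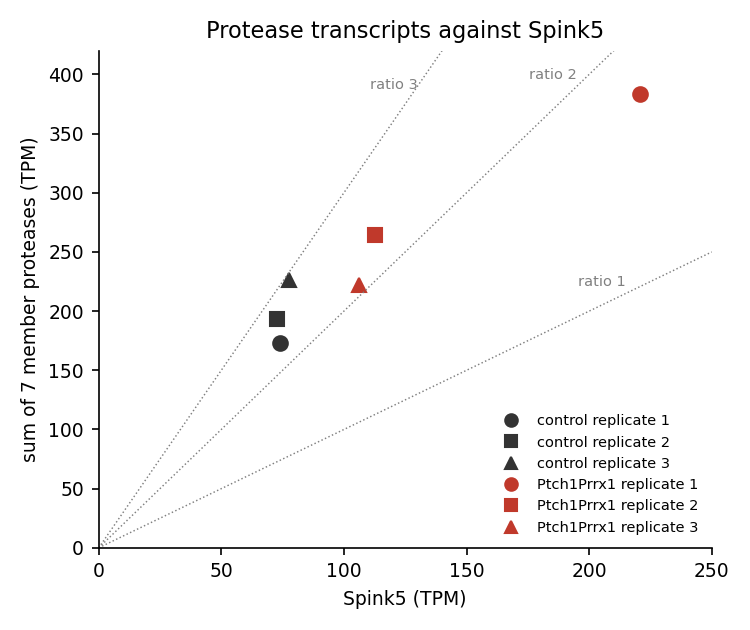
Summed TPM of the 7 listed proteases (y axis) against *Spink5* TPM (x axis), with 1 point per sample, black for control and red for Ptch1Prrx1. Dotted lines mark protease to *Spink5* ratios of 1, 2 and 3, and the samples lie between 1.73 and 2.91, with Ptch1Prrx1 replicate 1 (red circle) at the lowest ratio and the highest of both levels.

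The cluster was also followed gene by gene in its RefSeq order, which runs *Klk14*, *Klk13*, *Klk12*, *Klk11*, *Klk10*, *Klk9*, *Klk8*, *Klk7*, *Klk6*, *Klk5* and *Klk4*. *Klk9* and *Klk12*, which are not among the 10 genes, lie within this run. *Klk9* had 1.36, 1.12 and 1.49 TPM in controls and 4.95, 3.19 and 1.81 TPM in Ptch1Prrx1 samples (log2 fold change 1.37, SE 0.41, adjusted p = 0.0622, edgeR). *Klk12*, named for its place, was not tested, with 2, 2 and 3 counts in controls and 52, 14 and 4 in Ptch1Prrx1 samples. The genes from *Klk10* to *Klk7*, and *Klk12* on the other side of *Klk11*, were thus higher in all 3 Ptch1Prrx1 samples than in any control, whereas *Klk11* between them was not. For *Klk9* the nearest samples were 24 and 20 counts, and for *Klk12* 4 and 3. *Ctu1*, which lies beside *Klk14* outside this run, had 11.77 to 16.66 TPM in controls and 10.20 to 11.91 TPM in Ptch1Prrx1 samples (log2 fold change -0.36, adjusted p = 0.0954, edgeR). *Klk4* had 1 count in Ptch1Prrx1 replicate 1 and 0 in the other samples.

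**Figure D4:**
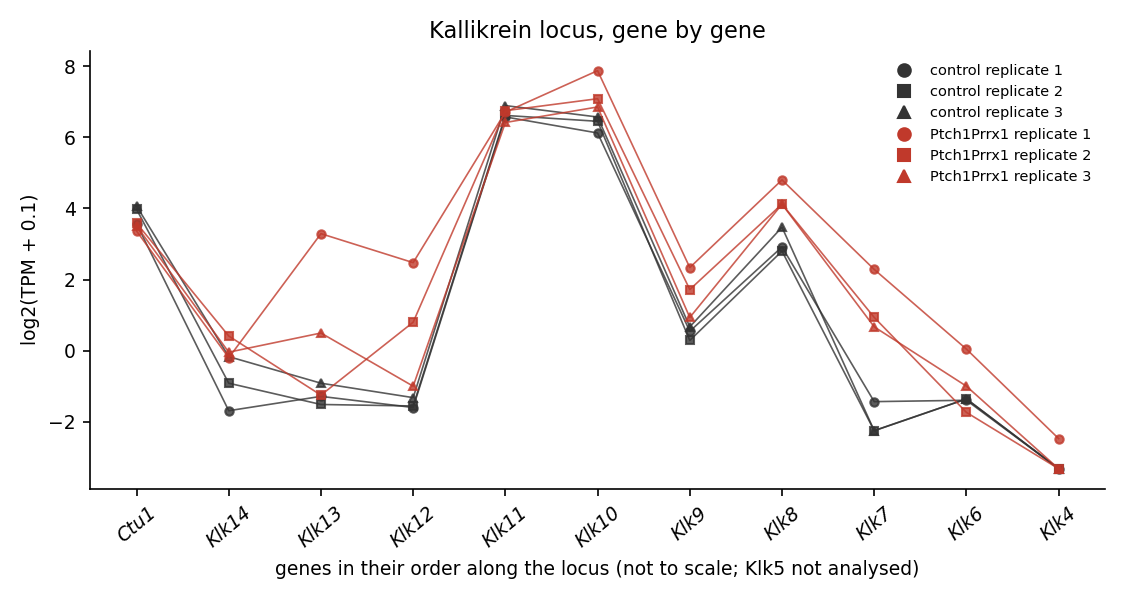
Levels along the kallikrein cluster, as log2(TPM + 0.1), for genes in their RefSeq order (x axis, not to scale), with 1 line per sample, black for control and red for Ptch1Prrx1. The lines meet at *Klk11*, are apart by group from *Klk10* to *Klk7*, and Ptch1Prrx1 replicate 1 stands above the other samples at *Klk13* and *Klk12*.

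The wider protease network was described from lists of other kallikreins, inhibitors, proteases and substrates. Of 18 other kallikreins, 9 were listed and 1 was tested, *Klk9*, which was not called. The inhibitor list held 27 genes, of which 23 were listed and 14 were tested, with 1 up and 1 down and a median log2 fold change of 0.28. *Serpinb2*, an inhibitor of plasminogen activators, had 0.58, 0.82 and 0.71 TPM in controls and 21.3, 5.93 and 3.54 TPM in Ptch1Prrx1 samples (log2 fold change 3.94, SE 0.77, adjusted p = 0.0214, edgeR). *Cst6*, which encodes the cysteine protease inhibitor cystatin M/E, had 18.4, 16.6 and 15.3 TPM in controls and 7.13, 9.31 and 7.94 TPM in Ptch1Prrx1 samples. It was downregulated (log2 fold change -1.01, SE 0.13, adjusted p = 0.00808, edgeR), and its call was lost without control replicate 1 or 2 or Ptch1Prrx1 replicate 1 or 3. That for *Serpinb2* was lost without control replicate 1, 2 or 3, and its log2 fold change was 2.76 without Ptch1Prrx1 replicate 1. *Spint1* and *Spint2*, which encode inhibitors of matriptase, were far more abundant than *Spink5*, at 288 and 1000 TPM on average in controls. Their log2 fold changes were -0.02 and -0.13 (adjusted p = 0.895 and 0.246, edgeR), with 95% intervals of -0.25 to 0.20 and -0.29 to 0.04.

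Of 25 other proteases, which include cathepsins and other proteases from inside the cell, 23 were listed and 21 were tested. Among these, 1 was up and 0 were down, with a median log2 fold change of 0.41. *Plau*, which encodes the urokinase-type plasminogen activator, had 12.8, 9.20 and 15.4 TPM in controls and 59.0, 18.1 and 39.5 TPM in Ptch1Prrx1 samples (log2 fold change 1.69, SE 0.41, adjusted p = 0.0380, edgeR). *Plau* remained called without Ptch1Prrx1 replicate 2 and was not called when any other single sample was left out, with a log2 fold change of 1.201 without replicate 1. At the adjusted p alone, 8 of the 21 were higher, where 7.61% of all tested genes were, and 1 was lower, where 6.41% were. *Furin*, a protease that activates precursors of other proteins, was among the 8, at 38.3, 40.2 and 39.8 TPM in controls and 55.8, 54.8 and 60.6 TPM in Ptch1Prrx1 samples (log2 fold change 0.57, SE 0.06, adjusted p = 0.00448, edgeR). *Prss8*, which encodes prostasin and acts with matriptase, had a log2 fold change of 0.38 (SE 0.11, adjusted p = 0.0543, edgeR). *Furin* and *Prss8* were named after their values were seen, as were *Spint1*, *Spint2*, *Dsg1a*, *Dsg1b* and the single marker genes described last.

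Among 11 known substrates, 10 were listed and 8 were tested, with 2 up and 0 down and a median log2 fold change of 0.26. *Cdsn*, which encodes corneodesmosin, had 11.2, 4.66 and 8.84 TPM in controls and 78.0, 32.0 and 14.7 TPM in Ptch1Prrx1 samples (log2 fold change 2.42, SE 0.63, adjusted p = 0.0453, edgeR). The call for *Cdsn* was lost when any single sample except Ptch1Prrx1 replicate 3 was left out, and the log2 fold change was 1.53 without replicate 1. *Flg*, which encodes filaggrin, rose from 1 or 2 counts in each control to 12 or 13 in each Ptch1Prrx1 sample, and stayed at 0.10 TPM or less. The ratio of its sums was 7.42, with a counting interval of 2.91 to 24.2 (adjusted p = 0.0118, edgeR), and the call was lost without control replicate 2. Like *Klk7*, *Flg* passed the filter only through its Ptch1Prrx1 counts and had to differ once tested. *Dsg1a*, a desmoglein-1 gene whose product these proteases cut, was lower at the adjusted p alone, at 485, 481 and 504 TPM in controls and 292, 363 and 310 TPM in Ptch1Prrx1 samples (log2 fold change -0.55, SE 0.10, adjusted p = 0.0183, edgeR). *Dsg1a* has close copies that can share its reads, and *Dsg1b* had 44.5 to 56.6 TPM in controls and 50.1 to 69.1 TPM in Ptch1Prrx1 samples (log2 fold change 0.34, adjusted p = 0.132, edgeR). The adjusted p of *Dsg1a* was above 0.05 without control replicate 1, 2 or 3. Of 6 genes for surface pH, cholesterol sulfate and lipid processing, 5 were tested and 0 were called.

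**Figure D5:**
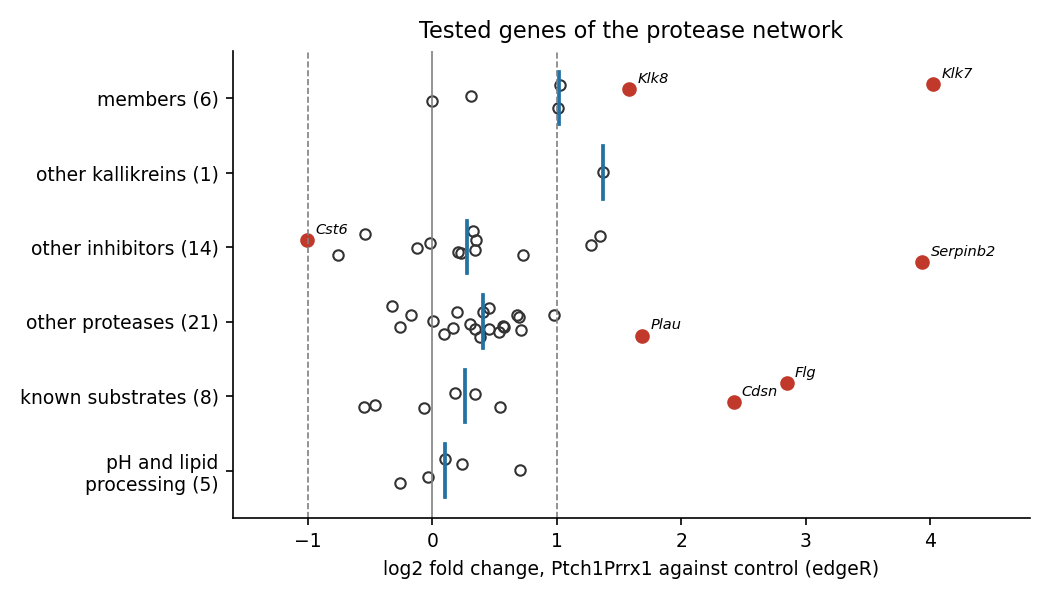
Log2 fold change (x axis) of the tested genes in each list, with the number tested in brackets, filled red points for called genes, open points for the others and a blue line at the median. Dashed lines mark a fold change of 2 in either direction, and the called genes besides *Klk7* and *Klk8* are *Serpinb2*, *Plau*, *Cdsn* and *Flg* above 0 and *Cst6* below 0.

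Among genes with a mean of 100 normalized counts or more, the profile nearest to the mean of the 4 tested proteases over the 6 samples was that of *Gm42226*. The distance was 0.111 (root mean square difference in centred log2 CPM), and *Nat8l* (0.146) and *Sat1* (0.148) followed out of 10318 candidates. The mean profile of the 4 proteases lay between -0.92 and -0.66 in the controls and at 1.37, 0.56 and 0.32 in Ptch1Prrx1 replicates 1, 2 and 3. A high level in replicate 1 is thus part of what these 3 genes were picked for. *Klk7* differed most among the 4 that form the profile, and entered it only because its Ptch1Prrx1 counts passed the filter. Part of the group difference in the profile was thus fixed by the filter.

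Some markers of other tissues moved with some of these values. Summed over 9 listed epidermal markers, the level was 17.7 to 21.2 TPM in controls and 73.4, 33.0 and 26.5 TPM in Ptch1Prrx1 samples, and *Flg* and *Kprp* of the 6 tested were called. Within this sum *Kprp* had 2.51 to 6.01 TPM in controls and 29.72, 18.29 and 11.27 TPM in Ptch1Prrx1 samples. *Krtdap* had 20.91 TPM in Ptch1Prrx1 replicate 1 and 0 to 1.00 TPM in the other samples. Of the epidermal keratins, *Krt1* had 4.55 to 5.30 TPM in controls and 2.58 to 3.68 TPM in Ptch1Prrx1 samples (log2 fold change -0.64, adjusted p = 0.0401, edgeR), and the adjusted p was 0.0841 without Ptch1Prrx1 replicate 1. *Krt10* had 6.54 to 9.88 TPM in controls and 7.72 to 11.64 TPM in Ptch1Prrx1 samples, highest in replicate 1 (log2 fold change 0.25, adjusted p = 0.401, edgeR), and *Krt2* had 0.14 TPM or less in all 6. The sum of 10 immune markers was 125 to 161 TPM in controls, 654 TPM in Ptch1Prrx1 replicate 1 and 155 and 182 TPM in replicates 2 and 3. Of the 10 genes, 4 had their highest TPM in replicate 1, namely *S100a9*, *S100a8*, *Itgam* and *Cd68*. *S100a9*, which neutrophils and stressed keratinocytes express, was at 373 TPM there and at 0.64 to 7.02 TPM in the other samples, and *S100a8* at 78.8 TPM against 0 to 0.94. The myeloid genes *Itgam* and *Cd68* were at 128.51 and 65.48 TPM there, against 66.97 to 100.63 and 45.26 to 50.11 TPM in controls, and the leukocyte gene *Ptprc* was at 0.02 to 0.20 TPM in all 6. The 9 listed conjunctival markers summed to 1410 to 2341 TPM in controls and 4691, 2193 and 2914 TPM in Ptch1Prrx1 samples, with 0 of 6 called. *Krt13*, *Krt4* and *Krt19* made up most of that sum. *Krt8* was lower, at 11.98 to 15.62 TPM in controls and 5.90 to 7.96 TPM in Ptch1Prrx1 samples (log2 fold change -0.91, adjusted p = 0.0139, edgeR). The 5 listed limbal markers summed to 1054 to 2134 TPM and to 1648 to 3689 TPM, with 0 called. Most of that sum was *Krt15*. *Abcg2* was lower, at 22.12 to 25.95 TPM in controls and 13.17 to 19.25 TPM in Ptch1Prrx1 samples (log2 fold change -0.53, adjusted p = 0.0476, edgeR). Of 10 corneal epithelial markers, *Krt14*, a keratin of basal cells, and *Clu*, which encodes clusterin, were called. *Krt14* had 534, 535 and 644 TPM in controls and 5798, 3254 and 2420 TPM in Ptch1Prrx1 samples (log2 fold change 2.81, SE 0.34, adjusted p = 0.00769, edgeR). Without Ptch1Prrx1 replicate 1 its log2 fold change was 2.33, and the call was lost without control replicate 2. *Clu* had 447 to 482 TPM in controls and 842 to 959 TPM in Ptch1Prrx1 samples (log2 fold change 1.00, adjusted p = 0.00376, edgeR), and was below the fold change of a call without replicate 1 (0.92). The 10 listed stromal markers summed to 56.3 TPM in control replicate 3 and to 7.84 to 12.49 TPM in the other samples. *Col1a2* and *Vim* were at 25.98 and 20.77 TPM in that control, and *Kera* was at 0.07 TPM or less in every sample. The 4 vessel markers summed to 2.65 TPM or less. The part of these markers in the kallikrein and *Spink5* values was not tested.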

How the data were processed

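RNA from corneal epithelial cells of 3 control and 3 Ptch1Prrx1 samples was sequenced. The authors aligned reads with Bowtie2 2.2.5 and quantified genes with RSEM 1.2.12, as the submitters' processing notes also state, with mm9 as the build. The authors deposited expected counts, which are estimates per gene without scaling for depth, beside TPM and FPKM. The deposited TPM values are scaled for length within a sample, and the deposited FPKM columns and group means were not used. The labels name an Illumina kit, whereas the methods describe rRNA depletion and nanoball sequencing. Groups and replicate numbers came from the sample titles.

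Expected counts were rounded (39.4% of the values above 0 were not whole), filtered with filterByExpr and tested over all genes with the quasi-likelihood test of edgeR 4.0.16 in R 4.3.3 (TMM factors 0.960 to 1.03, Benjamini-Hochberg adjustment). Standard errors were derived from the F statistic, and 95% intervals from them with the residual and prior degrees of freedom. Normalized counts are counts scaled by these factors to the mean library. Ratios of summed counts carry exact conditional binomial intervals. Within groups, pairs of samples differed by 10.6 to 40.0 in chi-square per degree of freedom, beyond sampling noise. The alternatives used DESeq2 1.42.0 and limma 3.58.1, and the procedure was tested on simulated data.

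The 10 genes, the lists and the named genes (all 10, called list genes up to 5 per list, otherwise the most abundant) were chosen with earlier results of these data known. Protein sequences were not used here. A gene that this rule names from the pH and lipid list is not reported here. Same-numbered samples had correlations of 0.102, -0.0366 and 0.0107 between their deviations from the group means, so the numbers were not taken as pairs.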

Additional observations from a re-analysis of the deposited data

How the results depend on the processing

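Of the 16 alternatives, 12 left the number of called kallikrein-system genes within 1.5 times the 2 of the report, among them the fit with the replicate number as a block, which also called 2. Leaving out 1 sample gave 0 to 4, with 0 without control replicate 2 and 4, *Klk7*, *Klk8*, *Klk10* and *Spink5*, without Ptch1Prrx1 replicate 3. Without Ptch1Prrx1 replicate 2, *Klk13* was called beside *Klk7* and *Klk8*. It passed the filter there only through its Ptch1Prrx1 counts and had to differ once tested. With at least 10 counts in every sample *Klk7* was not tested and *Klk8* and *Klk10* were called. The sign for *Klk11* turned to 0.002 with DESeq2, with RLE factors and with at least 10 counts in every sample, and ran from -0.072 to 0.101 when 1 sample was left out. *Klk7*, *Klk8*, *Klk10*, *Spink5* and *St14* kept their direction under every alternative that tested them, with log2 fold changes of 1.56 to 4.58, 1.2 to 1.78, 0.60 to 1.23, 0.56 to 1.24 and 0.27 to 0.33. For *Klk7* the direction was fixed in the filtered fits, because it passed the filter only through its Ptch1Prrx1 samples. For *St14* the adjusted p was above 0.05 in 4 of the fits that left out 1 sample, up to 0.0948 (edgeR). The ratio of proteases to *Spink5* in Ptch1Prrx1 samples was 0.781 of that in controls, 0.816 on normalized counts and 0.726 to 0.842 without 1 sample.

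Over all genes 420 were called, 304 up and 116 down, with 234 by limma on log2(TPM + 1) and 1822 with no minimum fold change (989 up and 833 down). Fits without 1 sample called 59 to 430, with 59 without control replicate 2. Other kallikreins had 0 calls, 1 with DESeq2 (*Klk9*) and 0 to 2 without 1 sample. Other inhibitors had 2, with 1 by limma-voom, 1 by limma on log2(TPM + 1) and 0 to 2 without 1 sample. Other proteases had 1, with 0 by limma-voom and by limma on log2(TPM + 1) or log2(TPM + 0.1), 9 with no minimum fold change and 0 to 2 without 1 sample. Substrates had 2, with 1 by limma-voom, 1 with at least 10 counts in every sample, 0 by limma on either TPM scale and 0 to 2 without 1 sample. The pH and lipid list had 0, and 1 with no minimum fold change. The sign for *Spint1* also turned, from -0.085 to 0.064 when 1 sample was left out. The cause of these differences was not tested. Depth limits the genes with few counts, such as *Klk6*, whose ratio had a counting interval of 0.855 to 5.07.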
